A study of Mus musculus with 7 samples.

Results

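The genes described here are 29 genes of cholesterol synthesis and sterol control, chosen by symbol from 23996 genes measured by RNA sequencing in mouse 3T3-L1 cells. They comprise 19 enzymes of the synthesis pathway, 6 genes that control the sterol-regulated transcription factor SREBP, and 4 genes of sterol transport and storage. 3T3-L1, a fibroblast line of embryonic origin, differentiates into fat cells under hormonal induction, and the study set out to identify a factor of importance to this process. The 7 libraries stand for 7 conditions, with 1 library per condition and therefore no replicate of any of them. The 0h control is from cells at confluence that had not yet been induced. At 4 h and 24 h, 1 library each came from cells in MDI, a mixture of IBMX (a phosphodiesterase inhibitor that raises cAMP), dexamethasone (a synthetic glucocorticoid) and insulin. A further library at each time came from cells in conditioned medium, called CM here, meaning MDI medium that 3T3-L1 cultures had conditioned until 48 h of differentiation. The last 2 libraries, Pro MDI and Pro CM, are of preconfluent cells in the same media, with no time given in the labels. All treated libraries thus came from cells in medium made with the inducers, and none was taken at 4 h or 24 h without them. Elapsed time, the change of medium and the inducers therefore cannot be told apart in any comparison with 0h. For the preconfluent libraries, confluence differs from 0h as well. How much of the inducers remained in CM is not known here. Loss of inducers and substances released by the conditioning cultures thus cannot be told apart in CM against MDI.

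Cholesterol is built in the cytosol and endoplasmic reticulum from acetyl-CoA through mevalonate, which is phosphorylated and decarboxylated to isoprene units, joined into farnesyl diphosphate and then squalene, closed into lanosterol and trimmed to cholesterol. Most of these genes are known targets of SREBP2, encoded by Srebf2. When sterols are scarce, the escort protein SCAP carries SREBP2 to the Golgi, where the proteases encoded by Mbtps1 and Mbtps2 release its active part, and when sterols are plentiful the INSIG proteins hold SCAP in the endoplasmic reticulum. In fat tissue, lipid droplets store triglyceride and, together with membranes, a large pool of free cholesterol.

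The promoters of 5 of the genes are shown because these genes carry much of what follows. Hmgcs1 holds the only match to the form of the sterol regulatory element searched, and Idi1 and Sc5d moved with stage. Hsd17b7 was far above its 0h level in each treated library, and Insig1 is a sterol sensor. The sequences are RefSeq GRCm38.p6 promoters from 250 bases before to 50 bases after the gene's start, written 5′ to 3′ on the gene's strand. They lie at chr13:119690101-119690400 (Hmgcs1, plus strand), chr13:8885356-8885655 (Idi1, plus), chr9:42264251-42264550 (Sc5d, minus), chr1:169969156-169969455 (Hsd17b7, minus) and chr5:28071162-28071461 (Insig1, plus). Capitals mark the sterol regulatory element TCACNCCAC and the CCAAT box, which on the gene's strand reads CCAAT or ATTGG.
Hmgcs1: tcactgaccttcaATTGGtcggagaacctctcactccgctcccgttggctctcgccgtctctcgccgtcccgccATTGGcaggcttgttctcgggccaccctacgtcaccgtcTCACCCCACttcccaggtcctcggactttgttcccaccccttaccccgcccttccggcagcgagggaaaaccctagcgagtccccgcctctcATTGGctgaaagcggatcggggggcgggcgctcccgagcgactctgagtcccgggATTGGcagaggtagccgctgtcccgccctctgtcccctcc
Idi1: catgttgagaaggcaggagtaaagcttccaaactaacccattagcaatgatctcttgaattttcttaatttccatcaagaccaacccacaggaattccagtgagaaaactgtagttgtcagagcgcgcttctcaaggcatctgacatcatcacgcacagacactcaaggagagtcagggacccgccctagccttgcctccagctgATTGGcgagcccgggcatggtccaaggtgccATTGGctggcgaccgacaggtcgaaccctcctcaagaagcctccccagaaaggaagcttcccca
Sc5d: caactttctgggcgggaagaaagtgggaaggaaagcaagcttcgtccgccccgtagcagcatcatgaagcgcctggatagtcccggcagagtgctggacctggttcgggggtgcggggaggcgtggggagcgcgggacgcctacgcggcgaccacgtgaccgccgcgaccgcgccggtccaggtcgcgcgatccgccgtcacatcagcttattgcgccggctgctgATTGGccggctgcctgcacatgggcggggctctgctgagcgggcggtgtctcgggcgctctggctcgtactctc
Hsd17b7: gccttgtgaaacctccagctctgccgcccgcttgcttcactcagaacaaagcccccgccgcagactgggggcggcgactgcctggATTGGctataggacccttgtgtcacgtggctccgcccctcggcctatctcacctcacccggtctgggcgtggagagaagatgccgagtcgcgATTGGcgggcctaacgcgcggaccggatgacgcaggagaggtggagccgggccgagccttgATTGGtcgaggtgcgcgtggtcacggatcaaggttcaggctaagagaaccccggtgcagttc
Insig1: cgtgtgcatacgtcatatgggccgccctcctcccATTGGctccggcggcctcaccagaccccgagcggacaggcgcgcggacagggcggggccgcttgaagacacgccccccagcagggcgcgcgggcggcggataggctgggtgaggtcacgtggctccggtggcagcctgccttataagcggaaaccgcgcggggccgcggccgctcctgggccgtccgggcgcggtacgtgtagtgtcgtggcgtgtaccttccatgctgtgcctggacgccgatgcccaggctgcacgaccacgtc

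A promoter was found for 24 of the 29 genes, with 30 promoters in all, and each motif was searched on both strands. The genes without one were Fdps, Fdft1, Sqle, Stard4 and Npc1. The sterol regulatory element TCACNCCAC matched in 1 of the 30 promoters, that of Hmgcs1, at 137 bases before the start. Of all 32841 promoters of the same length, 1.24% held a match. Only this form was searched, so a promoter without a match may hold another form or a site outside the window. The CCAAT box, a site bound by the factor NF-Y that is known to work beside SREBP, matched in 20 of the 30 promoters (20 of the 24 genes), against 37.4% of all promoters. The GC box GGGCGG matched in 24 of the 30 promoters (21 of the 24 genes), against 35.7% of all promoters. The E-box CACGTG matched in 6 of the 30 promoters (of Hsd17b7, Sc5d, Dhcr7, Scap and Insig1), against 7.15%. The 2 Scap promoters overlap and share 1 E-box and 1 GC box site, so each site counts for both promoters. The cAMP response element TGACGTCA matched in 0 of the 30, against 1.79%, which says only that these letters are not in these windows. Hmgcs1 held 4 CCAAT boxes, Hsd17b7 3, Idi1 2, and Sc5d and Insig1 1 each. For Pmvk both RefSeq starts lie away from the start of the locus in the deposited tables, so its promoter is not shown.

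Values are FPKM, which scale fragment numbers by transcript length and by the mapped fragments of the library, so levels may be compared between genes per length. Differences are in log2(FPKM + 1), which understates changes of weakly expressed genes. The summed FPKM of a library was lowest in the 0h control (558532) and highest in 4h MDI (714427), and 10530 to 11101 genes reached an FPKM of 1. Rescaling to equal sums (TPM) would shift each treated library against 0h by -0.16 to -0.36 on the log2 scale, and rescaling to a median ratio of 1 by 0.05 to 0.09. Read totals are unknown. The labels call the cells adipocytes. Of 7 mature adipocyte markers, 3 were under an FPKM of 1 in every library, Lep was listed at 0 throughout, and the summed FPKM was 28.01 to 36.7 in 5 libraries, 83.0 in Pro MDI and 131 in 24h CM, most of it Fabp4. The summed FPKM of 7 fibroblast and preadipocyte markers was 2226 to 8037, the highest at 0h, and that of leukocyte, endothelial, muscle and epithelial markers was at most 2.94. In a bulk sample, fewer cells of a type and less RNA per cell cannot be told apart.

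Most of the 29 genes were moderately expressed, and all of them had an FPKM of at least 3 in every library. At 0h the levels ran from 3.57 FPKM for Hsd17b7 to 226 FPKM for Npc2. The 19 enzymes together took 0.0474% of the summed FPKM at 0h, 0.0697% and 0.0681% at 4 h (MDI and CM), 0.0618% and 0.0510% at 24 h, and 0.0719% and 0.0633% in Pro MDI and Pro CM, and in the 4 h libraries Pmvk alone made up most of this. The 18 enzymes other than Pmvk together took 0.0453% of the summed FPKM at 0h, 0.0280% and 0.0287% at 4 h (MDI and CM), 0.0563% and 0.0464% at 24 h, and 0.0612% and 0.0532% in Pro MDI and Pro CM. The median enzyme stood at 11.6 FPKM at 0h, 10.02 and 9.23 at 4 h, 17.3 and 12.0 at 24 h, and 19.6 and 14.4 in the preconfluent libraries. Both shares were highest in Pro MDI, but that of all 19 was lowest at 0h and that without Pmvk was lowest in the 4 h libraries. Over the 7 libraries, the highest value of a gene was 25.1 times its lowest for Pmvk, 7.93 times for Hsd17b7 and 6.85 times for Idi1. At the other end, Mbtps2 varied by 1.44 times, Dhcr7 by 1.51 times and Ggps1 by 1.58 times.

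**Figure D1:**
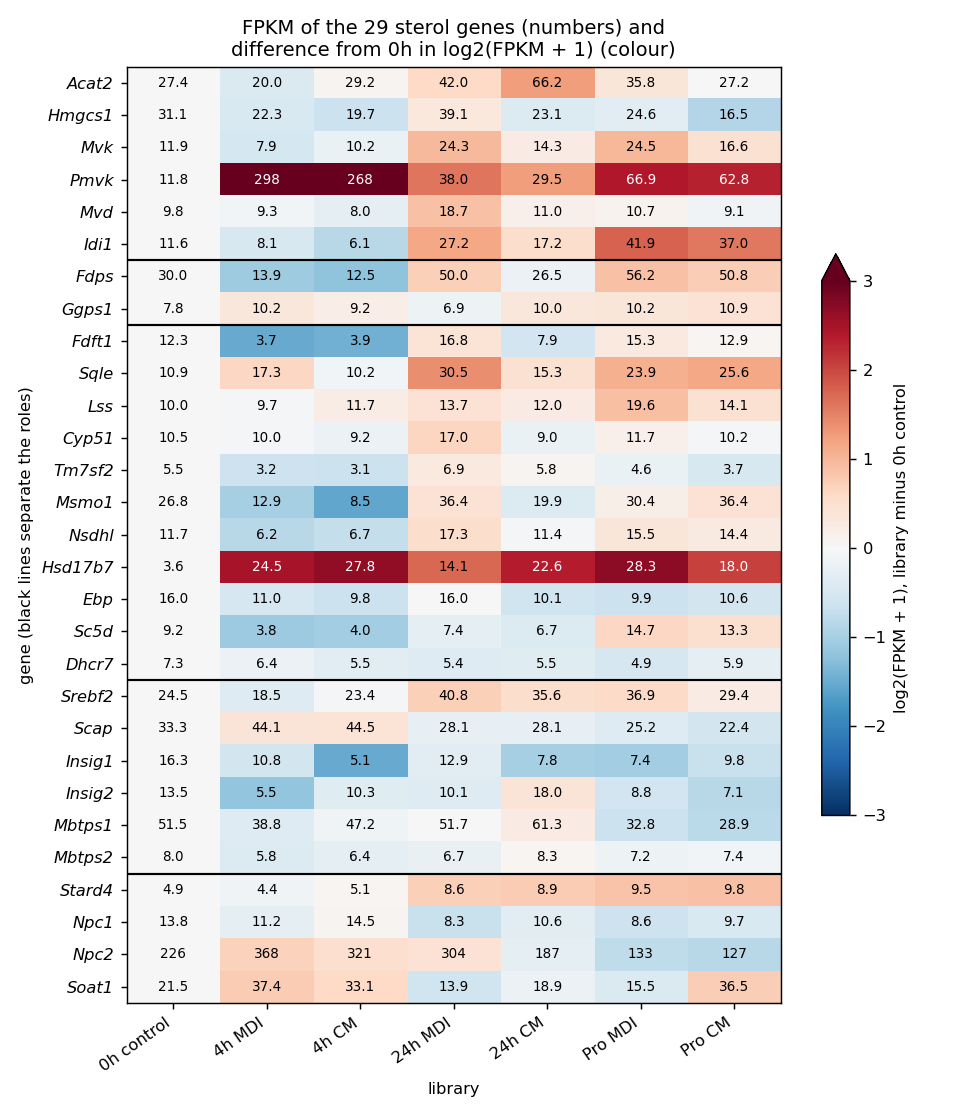
Each row is 1 of the 29 genes and each column 1 of the 7 libraries; numbers are FPKM and colour is the difference from the 0h control in log2(FPKM + 1), with black lines between the roles. Pmvk and Hsd17b7 are far above 0h in all 6 treated libraries, and Fdps, Fdft1, Msmo1 and Sc5d are below 0h in both 4 h libraries.

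Within 4 h of the medium change, the pathway did not move as 1 block. A pair of enzymes was far higher than at 0h in both media, Pmvk and Hsd17b7, while Sc5d was lower, and Fdps, Fdft1, Msmo1, Tm7sf2 and Nsdhl stood below 0h in both media without passing the test. By a rule of size for pairs of libraries (a difference of at least 1, which is 2-fold on this scale, in genes that reached an FPKM of 1 in either library), 2 of the 29 genes were higher and 4 lower in 4h MDI than in 0h, where 13.5% of all 11332 genes were higher and 14.1% lower. In 4h CM 2 were higher and 5 lower, where 9.53% of 11278 genes were higher and 9.35% lower. Both 4 h libraries are set against the same 0h library, so they are not separate support. limma with Benjamini-Hochberg adjustment, fitted over both media to 11015 genes with stage and medium as terms, called 2 of the 29 genes higher and 1 lower at 4 h at an adjusted p under 0.05, against 8.35% and 6.86% of all genes. All 29 passed its filter, a mean FPKM of at least 1 over the libraries. The median fitted difference was -0.26 over the 29 genes and -0.36 over the 19 enzymes, against -0.02 over all genes tested, and 21 of the 29 were below 0.

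The residual of this fit (2 degrees of freedom) mixes noise between libraries with any interaction of stage and medium, so its p-values say nothing of the spread between cultures, and the lone 0h library is assumed to vary like the others. Its 4 h result also depended on scale and libraries: after rescaling to TPM 2 genes were called higher and 7 lower, and without the 24 h libraries 1 gene was called, Pmvk, when 25 genes were called in all (adjusted p = 0.0783 for Hsd17b7 and 0.112 for Sc5d).

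At 24 h 15 of the 19 enzymes stood above 0h in fresh MDI (median 0.53), and in CM 10 stood above and 9 below (median 0.08), among the latter Ebp (-0.61), Fdft1 (-0.58), Hmgcs1 (-0.41) and Msmo1 (-0.41). The median of all genes was -0.02 in MDI and 0.00 in CM. In 24h MDI 4 of the 29 genes were at least 2-fold higher than at 0h and 0 lower, where 8.92% of 11404 genes were higher and 11.0% lower. The 4 were Pmvk, Hsd17b7, Sqle and Idi1. In 24h CM 3 were higher (Pmvk, Hsd17b7 and Acat2) and 0 lower, where 8.21% of 11413 genes were higher and 9.98% lower, and rescaling to TPM made this 3 higher and 1 lower. limma called 1 of the 29 genes, Pmvk, higher at 24 h than at 0h and 0 lower, against 4.78% and 5.08% of all genes.

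The contrast with the most calls among the 29 genes was 24 h against 4 h. limma called 7 of the 29 genes higher at 24 h than at 4 h (Idi1, Fdps, Fdft1, Tm7sf2, Nsdhl, Sc5d and Stard4) and 2 lower (Pmvk and Scap), against 9.41% of all genes higher and 9.11% lower. On TPM 8 were called higher and 1 lower. The median fitted difference was 0.69 over the 19 enzymes, of which 15 were above 0, and -0.02 over all genes. Without the preconfluent libraries 5 were called higher and 2 lower, and the calls of Tm7sf2, Nsdhl, Sc5d, Scap and Stard4 were lost (adjusted p from 0.0536 to 0.0651) while 3 others passed.

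In the preconfluent libraries 4 of the 29 genes were at least 2-fold higher in Pro MDI than in 0h and 1 lower, where 12.3% of 11379 genes were higher and 13.4% lower. In Pro CM 4 were higher and 0 lower, where 14.2% of 11418 genes were higher and 15.7% lower. In both, the higher genes were Pmvk, Hsd17b7, Idi1 and Sqle, and the lower gene in Pro MDI was Insig1. The split in Pro MDI was 5 higher and 0 lower after rescaling to a median ratio of 1, and that in Pro CM was 4 higher and 2 lower after rescaling to TPM. limma called 4 higher (Pmvk, Hsd17b7, Idi1 and Stard4) and 0 lower in the preconfluent libraries against 0h, where 13.7% of all genes were called higher and 12.6% lower, and on TPM 3 were called higher and 1 lower. Without the 24 h libraries the call of Stard4 was lost (adjusted p = 0.114).

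**Figure D2:**
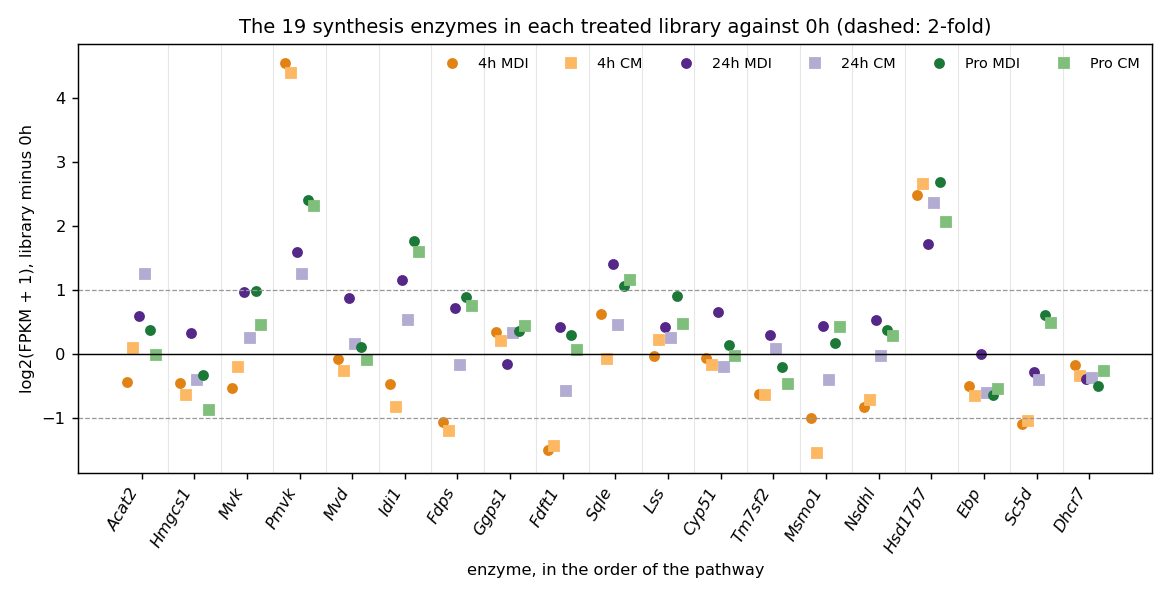
Points show the difference of each treated library from the 0h control in log2(FPKM + 1) for the 19 enzymes in pathway order, circles for MDI and squares for CM, with dashed lines at 2-fold. Pmvk and Hsd17b7 are above the upper dashed line in all 6 libraries, and the 4 h points of Fdps, Fdft1 and Sc5d are below the lower one.

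Among the enzymes from acetyl-CoA to isoprene units, Pmvk and Idi1 moved most. Pmvk, the phosphomevalonate kinase (chromosome 3, locus 89459118 to 89469009 in the deposited tables), stood at 11.8 FPKM at 0h, 298 in 4h MDI, 268 in 4h CM, 38.0 in 24h MDI, 29.5 in 24h CM, 66.9 in Pro MDI and 62.8 in Pro CM. Both 4 h libraries were far above the rest, and the 0h library was the lowest. The ratio to 0h was 25.1 in 4h MDI and 22.7 in 4h CM. In limma Pmvk rose by 4.46 (SE 0.18, adjusted p = 0.00745) at 4 h, fell by 3.04 (SE 0.14, adjusted p = 0.0108) from 4 h to 24 h and was still 1.42 (SE 0.18, adjusted p = 0.0255) above 0h at 24 h. In the preconfluent libraries it was 2.36 (SE 0.18, adjusted p = 0.00852) above 0h. All 4 calls held under each alternative tried. In the authors' deposited tables Pmvk had q = 0.0569 for 4h MDI against 0h and q = 0.0729 for 4h CM against 0h, and no other of the 29 genes had q under 0.1 in any of the 7 pairs. No exon of another gene in GENCODE release M21 overlaps those of Pmvk, but the start of its locus in the deposited tables differs from both RefSeq starts, and where its reads lie along the locus cannot be seen from FPKM.

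Mvk, the mevalonate kinase that acts just before Pmvk, did not share its rise at 4 h. Its level was 11.9 FPKM at 0h, 7.93 and 10.2 at 4 h (MDI and CM), 24.3 and 14.3 at 24 h, and 24.5 and 16.6 in the preconfluent libraries. The 4 h libraries were the lowest, and both MDI libraries at the other stages were the highest. limma made no call for it (fitted difference -0.36 at 4 h, adjusted p = 0.494).

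Idi1, which interconverts the isoprene units, stood at 11.6 FPKM at 0h, 8.07 and 6.12 at 4 h, 27.2 and 17.2 at 24 h, and 41.9 and 37.0 in Pro MDI and Pro CM. It was lowest at 4 h and highest in the preconfluent cells, and the pairs of libraries at the 3 treated stages did not overlap. Idi1 rose by 1.495 (SE 0.18, adjusted p = 0.0176) from 4 h to 24 h and was 1.68 (SE 0.21, adjusted p = 0.0139) above 0h in the preconfluent libraries, by limma. The first call was lost under 1 of 9 alternatives, and the second held under all 10.

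The first steps of the pathway showed smaller differences. Hmgcs1, the HMG-CoA synthase, was at 31.1 FPKM at 0h, 22.3 and 19.7 at 4 h, 39.1 and 23.1 at 24 h, and 24.6 and 16.5 in the preconfluent libraries. Its 24h MDI library was the highest and its Pro CM library the lowest, and at each stage the CM library was below the MDI library. Acat2, the cytosolic thiolase that joins acetyl-CoA units, was at 27.4 FPKM at 0h, 20.0 and 29.2 at 4 h, 41.998 and 66.2 at 24 h, and 35.8 and 27.2 in the preconfluent libraries. It differed from most enzymes in being highest in 24h CM. Mvd, the mevalonate diphosphate decarboxylase, was at 18.7 FPKM in 24h MDI and between 7.95 and 11.0 in the other libraries. limma called none of the 3 in any contrast.

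Of the prenyl chain enzymes, Fdps moved and Ggps1 hardly varied. Fdps, the farnesyl diphosphate synthase, was at 30.0 FPKM at 0h, 13.9 and 12.5 at 4 h, 50.0 and 26.5 at 24 h, and 56.2 and 50.8 in the preconfluent libraries. Both 4 h libraries were below all others. Fdps rose by 1.40 (SE 0.24, adjusted p = 0.0326) from 4 h to 24 h by limma, while its difference at 4 h against 0h, -1.13, had an adjusted p of 0.0666. The call of Fdps was lost under 1 of 9 alternatives. Ggps1, which extends farnesyl diphosphate for protein prenylation, lay between 6.91 and 10.9 FPKM in the 7 libraries. The protein-coding model Gm43738 shares 26.7% of the exon bases of Fdps on the same strand in GENCODE release M21.

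Among the squalene and sterol ring enzymes, Hsd17b7 stood apart from its neighbours. Hsd17b7, the keto-reductase of sterol demethylation (chromosome 1, locus 169949537 to 169969205), was at 3.57 FPKM at 0h, 24.5 and 27.8 at 4 h, 14.1 and 22.6 at 24 h, and 28.3 and 18.0 in the preconfluent libraries. The 0h library was below every treated library, by 3.94 to 7.93 times. Hsd17b7 rose by 2.57 (SE 0.41, adjusted p = 0.0352) at 4 h and was 2.37 (SE 0.41, adjusted p = 0.0226) above 0h in the preconfluent libraries, by limma. The first call was lost under 2 of 10 alternatives and the second under 1 of 10. At 24 h the fitted difference from 0h was 2.04 (SE 0.41), with an adjusted p of 0.0515. In the authors' deposited tables its p-value was 0.00635 for 4h MDI, 0.00345 for 4h CM, 0.0389 for 24h MDI and 0.0083 for 24h CM against 0h, with no q under 0.1. No exon of another annotated gene overlaps its own.

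**Figure D3:**
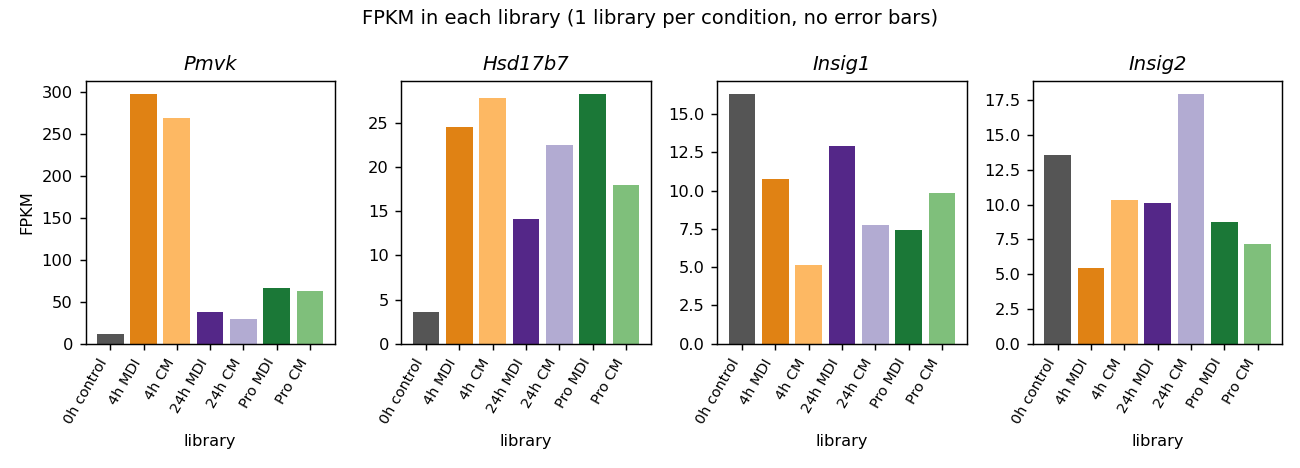
Bars show the FPKM of Pmvk, Hsd17b7, Insig1 and Insig2 in each of the 7 libraries, 1 library per condition and so without error bars. Pmvk reaches 298 and 268 at 4 h, Hsd17b7 is lowest at 0h (3.57), and Insig1 and Insig2 differ in which medium is higher at 4 h and 24 h.

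The 2 enzymes that work with Hsd17b7 in demethylation stood below their 0h levels at 4 h, not above. Msmo1, the methylsterol monooxygenase, was at 26.8 FPKM at 0h, 12.9 and 8.48 at 4 h, 36.4 and 19.9 at 24 h, and 30.4 and 36.4 in the preconfluent libraries. Nsdhl, the sterol dehydrogenase of the same complex, was at 11.7 FPKM at 0h, 6.16 and 6.73 at 4 h, 17.3 and 11.4 at 24 h, and 15.5 and 14.4 in the preconfluent libraries. Both were lowest in the 4 h libraries, where Hsd17b7 was near its highest. Nsdhl rose by 1.02 (SE 0.22, adjusted p = 0.0427) from 4 h to 24 h, and Msmo1 just missed the threshold in the same limma contrast (1.28, SE 0.30, adjusted p = 0.0503). The differences at 4 h against 0h, -1.27 for Msmo1 and -0.77 for Nsdhl, had adjusted p of 0.0770 and 0.106.

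Fdft1, the squalene synthase that commits the pathway to sterols, was at 12.3 FPKM at 0h, 3.69 and 3.93 at 4 h, 16.8 and 7.92 at 24 h, and 15.3 and 12.9 in the preconfluent libraries. The 4 h libraries were the lowest, and the 24 h libraries differed by more than 2-fold in FPKM between the media. Fdft1 rose by 1.39 (SE 0.30, adjusted p = 0.0434) from 4 h to 24 h by limma, and its difference at 4 h against 0h, -1.47, had an adjusted p of 0.0593. The call from 4 h to 24 h was lost under 2 of 9 alternatives. The exons of Fdft1 overlap those of Ctsb, a lysosomal protease gene on the other strand, over 18.3% of their bases. Both genes carry 1 shared locus in the deposited tables. Ctsb was at 116 FPKM at 0h, 130 and 145 at 4 h and 75.1 and 79.3 at 24 h, and as the strandedness of the libraries is not given in the sources used here, reads of the shared bases cannot be assigned with certainty.

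Sc5d, the desaturase near the end of the pathway, was at 9.25 FPKM at 0h, 3.79 and 3.97 at 4 h, 7.42 and 6.73 at 24 h, and 14.7 and 13.3 in the preconfluent libraries. The stages did not overlap, and the libraries of a stage lay close together. Sc5d fell by 1.07 (SE 0.19, adjusted p = 0.0391) at 4 h and rose by 0.73 (SE 0.15, adjusted p = 0.0427) from 4 h to 24 h, by limma. The call at 4 h was lost under 3 of 10 alternatives, with adjusted p from 0.0307 to 0.112. Tm7sf2, a sterol reductase, was at 5.45 FPKM at 0h, 3.17 and 3.14 at 4 h, 6.90 and 5.82 at 24 h, and 4.58 and 3.66 in the preconfluent libraries. It rose by 0.82 (SE 0.16, adjusted p = 0.0389) from 4 h to 24 h. Tm7sf2 shares 12.1% of its exon bases with Vps51, a vesicle tethering gene on the same strand, which was itself at 21.5 FPKM at 0h, 5.63 and 8.41 at 4 h and 24.8 and 19.6 at 24 h. Both genes were thus lowest at 4 h, and the part of the shared bases in the Tm7sf2 values was not tested.

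The remaining ring enzymes had no limma call. Sqle, the squalene epoxidase, was at 10.9 FPKM at 0h, 17.3 and 10.2 at 4 h, 30.5 and 15.3 at 24 h, and 23.9 and 25.6 in the preconfluent libraries. Its MDI library was the higher at 4 h and 24 h but not in the preconfluent cells. Lss, which closes the sterol ring, lay between 9.74 and 19.6 FPKM, highest in Pro MDI, and Cyp51, the lanosterol demethylase, between 8.99 and 17.0 FPKM, highest in 24h MDI. Ebp, a sterol isomerase, lay between 9.83 and 16.0 FPKM. Dhcr7, the reductase of the last step, lay between 4.87 and 7.34 FPKM and was highest at 0h.

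**Figure D4:**
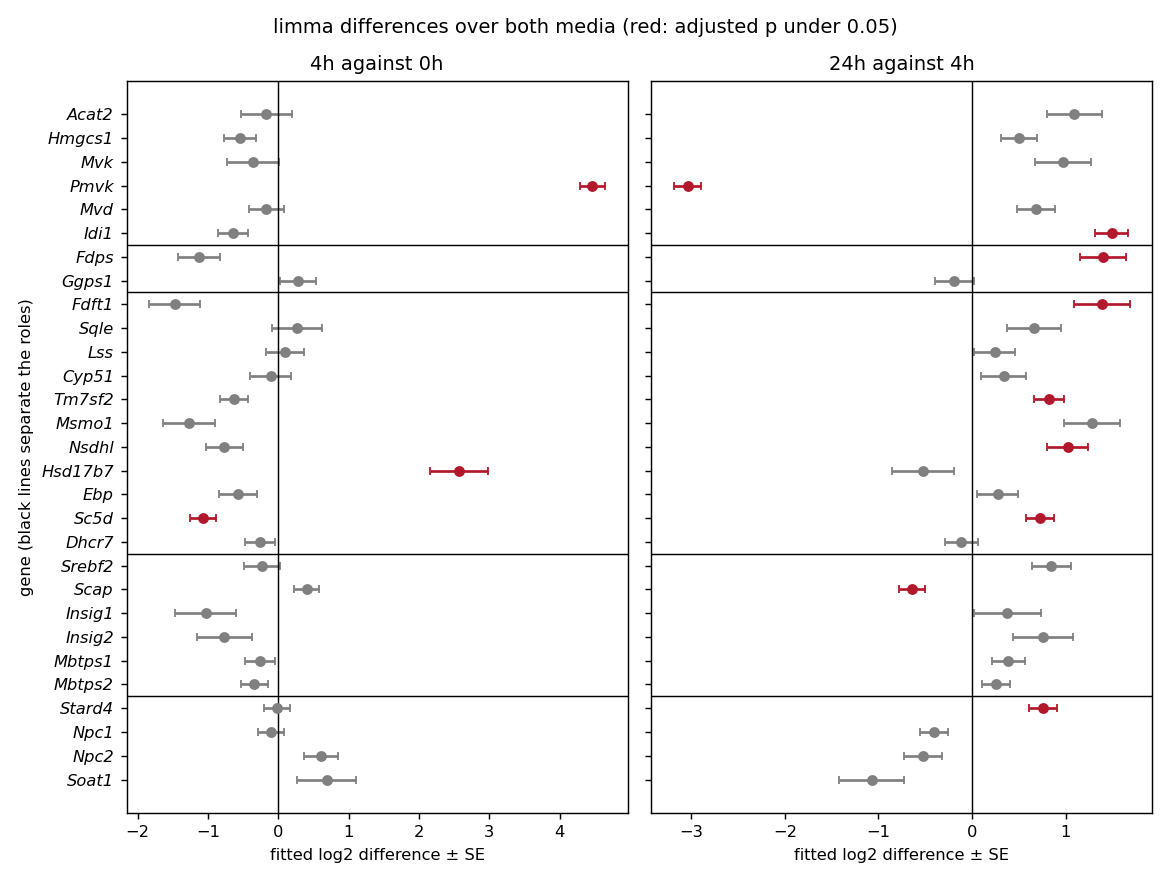
Points are limma's fitted differences over both media in log2(FPKM + 1) with bars of 1 SE, for 4h against 0h on the left and 24h against 4h on the right, red where the adjusted p is under 0.05. Pmvk is at 4.46 on the left and at -3.04 on the right, while Idi1, Fdps, Fdft1, Tm7sf2, Nsdhl and Sc5d rise from 4 h to 24 h.

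Of the 6 genes that control SREBP, limma called 1 in 1 contrast, 24 h against 4 h, where 9.41% of all genes were called higher and 9.11% lower. In the preconfluent libraries against 0h, 5 of the 6 were below 0, against 5531 of all 11015 genes. The median of the 6 was -0.59, against -0.002 over all genes, and limma called none of them there. Scap, the escort protein, was at 33.3 FPKM at 0h, 44.1 and 44.5 at 4 h, 28.1 and 28.1 at 24 h, and 25.2 and 22.4 in the preconfluent libraries. It was highest in the 4 h libraries, and it fell by 0.64 (SE 0.14, adjusted p = 0.0463) from 4 h to 24 h, a call that was lost under 4 of 9 alternatives, TPM among them (adjusted p = 0.0693). Srebf2, which encodes SREBP2, was at 24.5 FPKM at 0h, 18.5 and 23.4 at 4 h, 40.8 and 35.6 at 24 h, and 36.9 and 29.4 in the preconfluent libraries. Both 24 h libraries were above both 4 h libraries, and the limma difference of 0.85 (SE 0.21) had an adjusted p of 0.0551.

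The 2 INSIG genes took opposite orders between the media. Insig1, an SREBP target whose product retains SCAP, was at 16.3 FPKM at 0h, 10.8 and 5.13 at 4 h (MDI and CM), 12.9 and 7.77 at 24 h, and 7.43 and 9.84 in Pro MDI and Pro CM. Insig2, which retains SCAP in the same way, was at 13.5 FPKM at 0h, 5.45 and 10.3 at 4 h, 10.1 and 18.0 at 24 h, and 8.77 and 7.13 in the preconfluent libraries. At 4 h and 24 h Insig1 was lower in CM (differences of -0.94 and -0.67) and Insig2 higher (0.81 and 0.78), and in the preconfluent libraries both orders were turned round (0.36 and -0.27). Each of these is a difference of 1 library from 1 library, and limma called neither gene for medium. Of the proteases, Mbtps1 lay between 28.9 and 61.3 FPKM, highest in 24h CM and lowest in Pro CM, and Mbtps2 between 5.77 and 8.30 FPKM. The exons of Mbtps2 share 28.4% of their bases with Yy2 on the same strand, a gene at 1.59 to 4.14 FPKM.

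Of the transport and storage genes, Stard4 rose. Stard4, a soluble sterol carrier and known SREBP2 target, was at 4.86 FPKM at 0h, 4.43 and 5.12 at 4 h, 8.62 and 8.94 at 24 h, and 9.54 and 9.75 in the preconfluent libraries. The 0h and 4 h libraries were all below the other 4. Stard4 rose by 0.76 (SE 0.15, adjusted p = 0.0393) from 4 h to 24 h and was 0.86 (SE 0.18, adjusted p = 0.0348) above 0h in the preconfluent libraries by limma, of which the second call was also lost after rescaling to TPM (adjusted p = 0.0569). Npc2, the lysosomal sterol-binding protein, had the highest level of the 29 genes in each of the 7 libraries, from 127 FPKM in Pro CM to 368 FPKM in 4h MDI. Its membrane partner Npc1 lay between 8.29 and 14.5 FPKM. Soat1, which esterifies cholesterol for storage, was at 21.5 FPKM at 0h, 37.4 and 33.1 at 4 h, 13.9 and 18.9 at 24 h, and 15.5 and 36.5 in Pro MDI and Pro CM. Its Pro CM library was as high as the 4 h libraries and stood apart from Pro MDI. limma called none of Npc1, Npc2 and Soat1 in any contrast.

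The comparison the study was built on is CM against fresh MDI at the same stage. No enzyme reached 2-fold on the log2(FPKM + 1) scale at any stage, but at 24 h most of them were lower in CM. Of the 29 genes, 0 were at least 2-fold higher or lower in 4h CM than in 4h MDI, where 1.1% of 10800 genes were higher and 2.95% lower. At 24 h 0 were higher or lower, where 1.92% of 10972 genes were higher and 1.49% lower. In the preconfluent libraries 1 was higher, Soat1 (15.5 FPKM in Pro MDI and 36.5 in Pro CM, a difference of 1.18), and 0 lower, where 2.23% of 10770 genes were higher and 1.23% lower. limma, with the stage as a block over the 6 treated libraries, called 0 of the 29 genes for medium, as it called 0 of all 10889 genes tested (0.0%). At an unadjusted p under 0.05 there were 2 of the 29, Hmgcs1 (-0.48, SE 0.16) and Idi1 (-0.39, SE 0.14), and 130 of all genes, with no other tool run. Every adjusted p was at least 0.999.

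At 24 h, 15 of the 19 enzymes were lower in CM than in MDI, with a median difference of -0.61 against 0.01 over all genes. The farthest were Fdft1 at -0.997 (16.8 FPKM in MDI and 7.92 in CM), Sqle at -0.95 (30.5 and 15.3) and Fdps at -0.89 (50.0 and 26.5). Fdft1 lay just inside 2-fold on this scale, and it passed 2-fold with a pseudocount of 0.1 or after rescaling to a median ratio of 1. The 4 enzymes higher in CM were Acat2 (0.65), Hsd17b7 (0.64), Ggps1 (0.48) and Dhcr7 (0.02). At 4 h CM held the lower value for 12 of 19 enzymes (median -0.13 against 0.03 over all genes), and in the preconfluent libraries for 14 of 19 (median -0.18 against -0.01). The enzymes lower in CM at all 3 stages numbered 7 (Hmgcs1, Pmvk, Mvd, Idi1, Fdps, Cyp51 and Tm7sf2), and 0 were higher at all 3. Some of these differences were near 0, such as Tm7sf2 at 4 h (-0.01) and Pmvk in the preconfluent libraries (-0.09). The share of all genes with the same order at all 3 stages was not computed, so the count has no background. The summed FPKM of the mature adipocyte markers was 131 in 24h CM and 34.3 in 24h MDI, and its part in the enzyme values was not tested.

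**Figure D5:**
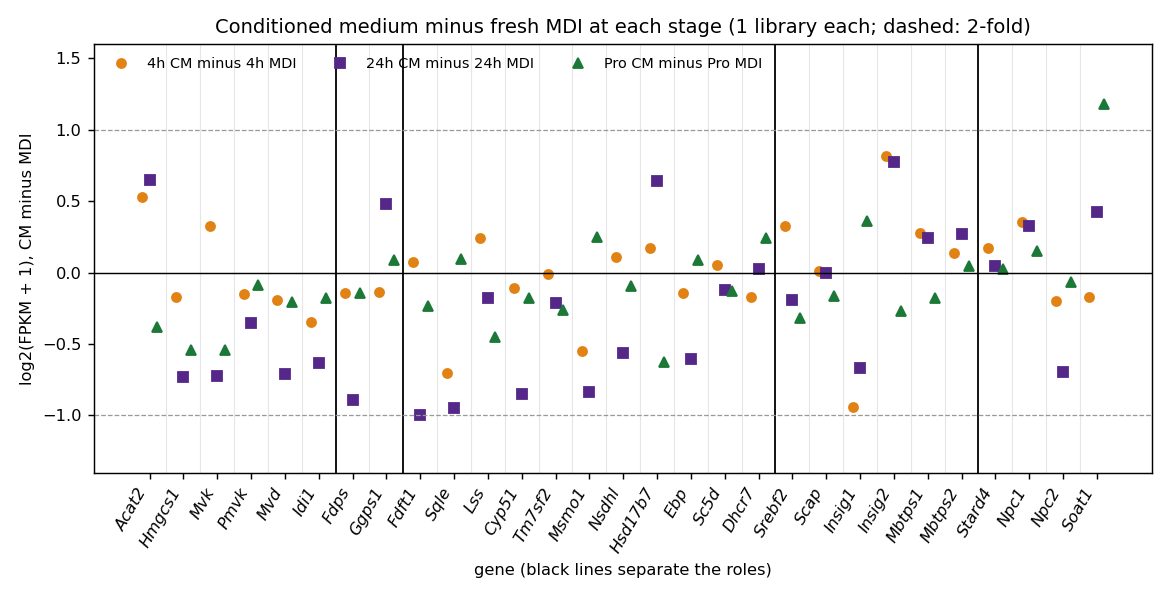
Points show CM minus MDI in log2(FPKM + 1) for each of the 29 genes at 4 h (circles), 24 h (squares) and in preconfluent cells (triangles), 1 library against 1, with dashed lines at 2-fold. The squares of 15 of the 19 enzymes lie below 0, Insig1 and Insig2 lie on opposite sides of 0 at 4 h and 24 h, and the triangle of Soat1 is above 2-fold.

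Other genes of sterol and lipid metabolism were taken from 5 lists, chosen by function with earlier results of these data known. Of the 11 fatty acid synthesis genes tested, limma called 3 higher and 1 lower at 4 h against 0h, where 8.35% of all genes were called higher and 6.86% lower. Scd1, the stearoyl-CoA desaturase, was at 19.0 FPKM at 0h, 504 and 534 at 4 h, 123 and 270 at 24 h, and 74.9 and 38.0 in the preconfluent libraries, and it rose by 4.70 (SE 0.62, adjusted p = 0.0325). Fasn, the fatty acid synthase, was at 27.6 FPKM at 0h, 102 and 84.9 at 4 h, 48.7 and 51.0 at 24 h, and 63.6 and 59.8 in the preconfluent libraries, and it rose by 1.71 (SE 0.18, adjusted p = 0.0300). Scd1 and Fasn were thus at their highest in the 4 h libraries. The median FPKM of the 19 sterol enzymes was lowest there, though Pmvk among them was at its highest. Elovl5, a fatty acid elongase, rose by 2.23 and Fads2, a desaturase, fell by 1.36. The fatty acid list did not move as 1 block. By the rule of size, 4 of 12 genes were higher and 5 lower in 4h MDI than at 0h, where 13.5% and 14.1% of all genes were. In 4h CM 5 were higher and 1 lower, where 9.53% and 9.35% of all genes were.

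Of the 4 other synthesis genes tested, 1 was called higher at 4 h, where 8.35% of all genes were. Por, the reductase that supplies electrons to Sqle and Cyp51, was at 31.8 FPKM at 0h, 286 and 154 at 4 h, 38.9 and 53.8 at 24 h, and 63.1 and 102 in the preconfluent libraries, and it rose by 2.68 (SE 0.51, adjusted p = 0.0423). Like Pmvk, it peaked in the 4 h libraries. Among the uptake and SREBP control genes, Srebf1, which encodes SREBP1, rose by 1.505 (SE 0.17, adjusted p = 0.0175) from 4 h to 24 h, its FPKM being 10.3 at 0h, 6.36 and 8.54 at 4 h, 21.2 and 24.5 at 24 h, and 6.79 and 6.73 in the preconfluent libraries. Mylip, the ligase that degrades the LDL receptor, fell by 3.08 (SE 0.32, adjusted p = 0.0102) in the preconfluent libraries against 0h.

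In the non-sterol branch of the mevalonate pathway, 2 of 13 genes were called higher and 1 lower at 4 h, near the 8.35% and 6.86% of all genes. The genes of this branch called in at least 1 contrast are given at their largest called difference. Pdss1, of ubiquinone side chain synthesis, was 2.12 above 0h in the preconfluent libraries. Icmt, which methylates prenylated proteins, differed by 1.22 at 4 h against 0h. The prenyltransferase subunits were Rabggtb (1.31 in the preconfluent libraries against 0h) and Rabggta (-1.07 at 4 h). Nus1, without a call, was at 18.9 FPKM at 0h and 73.2 and 34.9 at 4 h (MDI and CM). Of 12 sterol transport and storage genes tested, 1 was called higher and 3 lower in the preconfluent libraries against 0h, where 13.7% of all genes were called higher and 12.6% lower. Tmem97, an NPC1-binding protein, was higher by 1.97, and the lower genes were Lipa, the lysosomal acid lipase (-2.25), Gramd1b (-1.53) and Osbpl1a (-1.37), which carry sterols between membranes. From 4 h to 24 h, Nceh1, a cholesteryl ester hydrolase, fell by 1.23 and Stard3, a late endosomal sterol carrier, rose by 0.81.

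The 19 enzymes had a median centred profile over the 7 libraries of -0.05 at 0h, -0.35 and -0.37 at 4 h, 0.59 and -0.07 at 24 h, and 0.41 and 0.14 in Pro MDI and Pro CM, in log2(FPKM + 1). Among 8490 genes outside the 29 with a mean FPKM of at least 5, the 10 nearest to it by root mean square distance were Ppp2r5d, Nt5c, Nosip, B9d1, Capg, Dap, Mrpl52, Rnf181, Prelid1 and Mbd3, at distances of 0.0967 to 0.136. Tm7sf2, with a mean FPKM under 5, was not ranked. The nearest of the ranked genes of the set itself was Cyp51, at 0.194 and rank 123, followed by Srebf2 at 0.197 and rank 139. All 10 genes outside the set lay nearer to the median profile than any ranked gene of the set did. They were picked from 8490 genes for being nearest, so this order follows largely from the choice and is no result about the set.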

How the data were processed

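Total RNA was extracted with Trizol and sequenced by a standard Illumina method, per the labels' protocols. TopHat2 2.0.13 and Cuffdiff 2.2.0 were used, per the submitters' processing notes. The sources used here do not give the build, settings or strandedness. The authors deposited FPKM of 23996 genes in 7 tables of 2 libraries each, with a p-value and q-value from Cuffdiff per pair, per the file headers. Those p-values compare 2 libraries without replicates. A library's FPKM agreed between tables (largest difference 1.1e-16), so the tables were joined. 1 line per table was empty, and it was left out. All 29 loci overlapped the same symbol in GENCODE release M21 (GRCm38).

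Differences used log2(FPKM + 1). Pairs of libraries were compared by size (at least 1, in genes reaching an FPKM of 1 in either library) with no test. limma 3.58.1, with an intensity trend, was fitted to all genes with a mean FPKM of at least 1: stage and medium over 7 libraries, and medium with stage as a block over the 6 treated libraries. Adjusted p-values are Benjamini-Hochberg over all genes tested, called at under 0.05. The fit was tested on simulated data. Read totals are unknown, and no counting interval is printed.

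The 29 genes, the other lists and the tests were chosen with earlier results of these data known. All 29 genes are named. From the 5 other lists, genes called in at least 1 contrast were named, at most 6 per list, with the 10 genes of most similar profile. Genes that the rule names but the text does not are not reported here. Alternatives were a pseudocount of 0.1 or 5, no filter or an FPKM of at least 5, a median ratio of 1, TPM, limma without trend, a threshold of 0.1 or a difference of 0.58, and leaving out a pair of libraries. Those for pairs against 0h were added after seeing the data. limma ran in R 4.3.3, tables were handled with pandas 2.3.3 and numpy 2.4.6 in Python 3.11.15, and plots were drawn with matplotlib 3.10.9.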

Additional observations from a re-analysis of the deposited data

How the results depend on the processing

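Of 160 alternatives of the 17 limma calls, 134 kept the call and 26 lost it, and no gene changed direction. Only the pseudocounts and the rescalings could change a direction, because the other alternatives leave the fitted difference as it was. A threshold of 0.1 cannot lose a call, so its part of the calls kept was fixed in advance. The number of the 29 genes called for 4h against 0h moved from 3 to 1 with no filter on low values, 9 after rescaling to TPM, 8 at a threshold of 0.1 and 1 without the 24 h libraries. For 24h against 0h it moved from 1 to 2 with a pseudocount of 0.1, after rescaling to a median ratio of 1 and without the preconfluent libraries, and to 4 at a threshold of 0.1. For 24h against 4h it moved from 9 to 1 with no filter and 15 at a threshold of 0.1. For the preconfluent libraries against 0h it moved from 4 to 2 with no filter and 9 at a threshold of 0.1. With no filter more genes enter the adjustment. For medium it was 0 under all alternatives tried. The number at least 2-fold different between CM and MDI moved at 4 h from 0 to 1 with a pseudocount of 0.1 and 3 at a difference of 0.58. At 24 h it moved from 0 to 1 with a pseudocount of 0.1 or a median ratio of 1, and to 15 (3 higher and 12 lower) at 0.58. In the preconfluent libraries it moved from 1 to 2 at 0.58. Against 0h, a pseudocount of 5 moved it from 6 to 2 in 4h MDI, from 7 to 4 in 4h CM and from 5 to 3 in Pro MDI. A larger pseudocount makes every difference on this scale smaller, and no other cause was tested. The other 86 counts stayed within 1.5 times. The labels give no replicate numbers, so no fit by replicate was made; the medium fit set CM against MDI within each stage. Depth is unknown and there are no replicates, so differences between single libraries carry no error.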
